A study of Mus musculus with 6 samples.

Results

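The 10 dual specificity phosphatase genes described here are Dusp1, Dusp2, Dusp4, Dusp5, Dusp6, Dusp7, Dusp10, Dusp14, Dusp16 and Dusp22. They were taken by symbol from a list of phosphatases that act back on MAP kinase signalling, with Dusp14 added for its place beside the CC chemokine genes of chromosome 11, and all 10 were found among the 55401 genes of the count tables. RNA sequencing measured them in CD4+ T cells that had been enriched as naive cells from mouse spleen and stimulated through CD3 and CD28 for 24 h. One group, called Satb1 cKO, came from mice with loxP-flanked Satb1 alleles (flox/flox) and the CD4-Cre transgene (3 libraries), and the other came from control mice labelled WT (3 libraries). Both groups were stimulated in the same way. Cre driven by Cd4 regulatory sequences is active from the thymus onward, before T cells mature. Whether control mice carried Cre or were littermates, the age and sex of the mice, and whether each library is a separate mouse are not given in the labels. Effects of Cre or of strain background therefore cannot be told apart from the deletion, and every p-value rests on how far these libraries differ among themselves.

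Dual specificity phosphatases remove phosphate from both tyrosine and threonine, and the MAP kinase phosphatases among them switch off ERK, JNK or p38 by taking both phosphates from the kinase's activation loop. Several are themselves induced by MAP kinase activity, which makes a feedback loop, and T cell receptor stimulation is a classic inducer. The members fall into nuclear inducible enzymes (Dusp1, Dusp2, Dusp4, Dusp5), cytoplasmic ERK phosphatases (Dusp6, Dusp7), phosphatases of JNK and p38 (Dusp10, Dusp16) and small atypical enzymes without a MAP kinase binding domain (Dusp14, Dusp22).

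Reads counted on genes ranged from 16621609 to 19023023 in Satb1 cKO libraries and from 14895389 to 20266626 in control libraries. Satb1 was counted over the whole gene, including any exons that Cre does not remove. It stood at 426, 546 and 462 CPM (reads of a gene scaled to the size of its library) in Satb1 cKO. In control it stood at 712, 851 and 727 CPM. Reads per exon were not counted, so the extent of the deletion was not tested. All 9 listed T cell markers were detected in every library. Their summed level was 2214 to 2256 CPM in Satb1 cKO and 2799 to 2899 CPM in control, and 6 of the 9 were called lower and 1, Cd5, higher. Much of the difference in the sum lay in Cd4, which had 210, 212 and 204 CPM in Satb1 cKO and 721, 681 and 701 CPM in control (29.8% of the control mean, adjusted p = 2.28e-10). Of the CD8 T cell markers, Cd8a stood at 6.28 ± 1.39 CPM in Satb1 cKO and 0.792 ± 0.243 CPM in control and was called higher, and Cd8b1 at 19.8 ± 2.19 CPM in Satb1 cKO and 18.1 ± 1.98 CPM in control (adjusted p = 0.373). Myeloid and red cell markers were higher in Satb1 cKO. The 12 myeloid markers summed to 74.8 to 180 CPM in Satb1 cKO and 20.9 to 25.1 CPM in control, and the 7 red cell markers to 310 to 1862 CPM in Satb1 cKO and 24.9 to 31.4 CPM in control. The 8 B cell markers summed to 241 to 302 CPM in Satb1 cKO and 226 to 288 CPM in control, which overlap, and 2 of the 6 tested were called higher. None of these markers was at 0 reads throughout a group. Their part in the results on the phosphatases was not tested. Of 13364 genes tested, 42.3% were called at an adjusted p under 0.05 (quasi-likelihood F test in edgeR, adjusted by Benjamini-Hochberg over all genes tested, as for every adjusted p here).

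All 10 phosphatase genes had enough reads to be tested. In Satb1 cKO, 5 were called higher (Dusp4, Dusp5, Dusp14, Dusp16 and Dusp22), 3 were called lower (Dusp6, Dusp7 and Dusp10), and Dusp1 and Dusp2 did not pass. Over all genes tested, 21.6% were called higher and 20.7% lower. The 2 largest differences ran in opposite directions, Dusp14 being 5.31-fold higher and Dusp10 falling to 39.7% of its control mean. They were the only members called with a change of at least 2-fold, 1 higher and 1 lower; of all genes tested, 5.24% were called higher and 2.93% lower by that much, together 8.17%. The libraries of both groups did not overlap for 7 of the 10 members, against 53.4% of all genes tested. Within 3 of the 4 functional groups the called genes shared a direction: the nuclear Dusp4 and Dusp5 rose, the cytoplasmic Dusp6 and Dusp7 fell, and the atypical Dusp14 and Dusp22 rose. The JNK and p38 phosphatases went opposite ways, Dusp16 up and Dusp10 down. Each functional group held only 2 called genes, which can readily share a direction without any link to function. Such a link was not tested. The median log2 fold change of the 10 members was 0.18, against 0.00 for all genes tested, and the median absolute value was 0.57, against 0.22. In bulk RNA, fewer cells expressing a gene and less RNA per cell cannot be told apart.

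**Figure D1:**
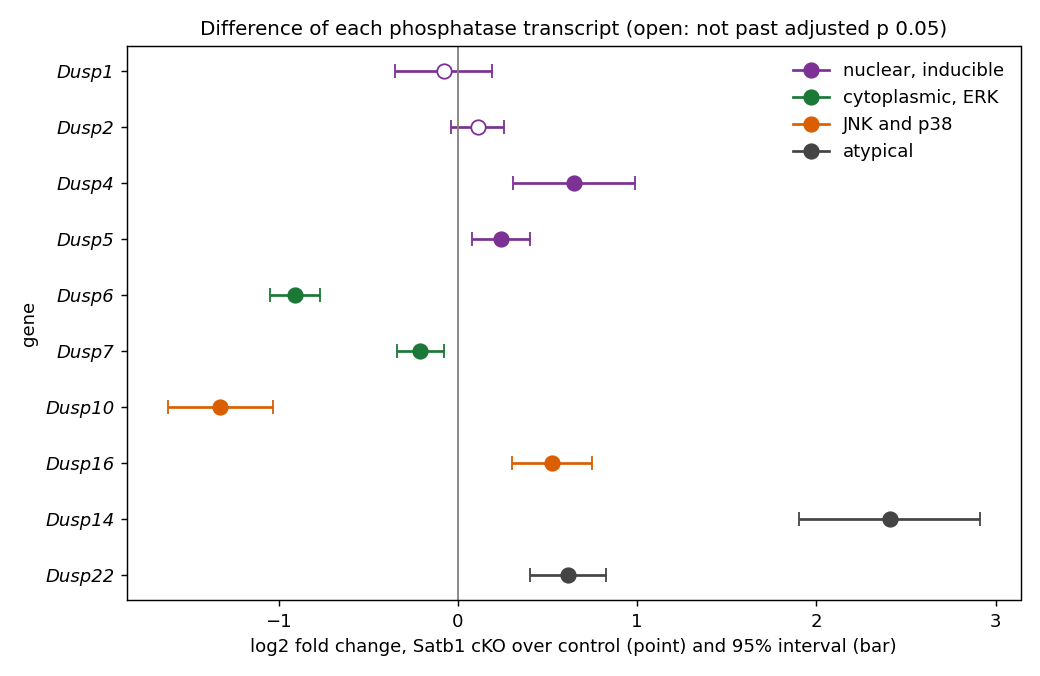
Log2 fold change of each phosphatase gene in Satb1 cKO over control (x axis, with its 95% interval) by gene (y axis), coloured by functional group; open points did not pass an adjusted p of 0.05. Dusp14 stands at 2.41 and Dusp10 at -1.33, and the intervals of Dusp1 and Dusp2 include 0.

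Promoter windows from RefSeq (GRCm38.p6), 250 bases before to 50 bases after the annotated start, were matched by symbol for 9 of the 10 members (all but Dusp4). Printed 5′ to 3′ on the gene's strand are those of Dusp14 and Dusp10, the members with the largest rise and fall, and of Dusp5 and Dusp1, which hold letters of elements known from immediate early genes. Capitals mark matches, on either strand, to 8 motifs. These were the CRE (TGACGTCA), AP-1 (TGACTCA), ETS (CCGGAAG) and EGR (GCGGGGGCG) sites, the TATA box (TATAAA), the CCAAT box (CCAAT), the GC box (GGGCGG) and the CArG box.
Dusp14, chr11:84068308-84068607, minus strand: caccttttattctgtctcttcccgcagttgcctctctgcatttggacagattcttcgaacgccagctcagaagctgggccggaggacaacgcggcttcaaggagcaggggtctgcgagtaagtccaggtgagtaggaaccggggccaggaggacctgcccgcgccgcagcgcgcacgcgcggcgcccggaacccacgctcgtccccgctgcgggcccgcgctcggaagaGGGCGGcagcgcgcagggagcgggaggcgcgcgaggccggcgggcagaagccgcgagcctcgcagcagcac
Dusp10, chr1:184034131-184034430, plus strand: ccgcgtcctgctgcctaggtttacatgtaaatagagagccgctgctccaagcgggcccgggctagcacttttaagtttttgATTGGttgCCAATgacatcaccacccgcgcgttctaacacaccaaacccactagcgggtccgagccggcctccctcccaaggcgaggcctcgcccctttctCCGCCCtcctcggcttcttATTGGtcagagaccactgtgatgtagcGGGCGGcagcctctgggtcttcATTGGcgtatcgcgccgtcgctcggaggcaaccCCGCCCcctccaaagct
Dusp5, chr19:53528895-53529194, plus strand: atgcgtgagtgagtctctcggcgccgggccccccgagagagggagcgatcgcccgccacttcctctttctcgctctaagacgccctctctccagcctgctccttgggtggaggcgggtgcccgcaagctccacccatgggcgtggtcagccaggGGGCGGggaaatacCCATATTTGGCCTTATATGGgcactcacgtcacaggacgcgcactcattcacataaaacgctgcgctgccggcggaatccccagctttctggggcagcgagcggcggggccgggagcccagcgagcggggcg
Dusp1, chr17:26508423-26508722, minus strand: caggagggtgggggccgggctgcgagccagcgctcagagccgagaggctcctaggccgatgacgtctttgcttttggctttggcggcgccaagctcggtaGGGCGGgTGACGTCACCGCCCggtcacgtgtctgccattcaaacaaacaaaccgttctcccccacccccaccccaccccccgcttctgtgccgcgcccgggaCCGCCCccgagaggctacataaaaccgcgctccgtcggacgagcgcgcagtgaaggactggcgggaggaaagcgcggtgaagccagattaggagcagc

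The windows were GC-rich, with 57.3% (Dusp6) to 79% (Dusp22) G and C against a median of 52.7% over 32851 windows of the same length. GC boxes were found in 8 of the 9 windows, and in 35.7% of all windows. Dusp5 held 2 adjacent CArG boxes, the element bound by serum response factor, starting at positions -82 and -72 from the start site; 1.63% of all windows hold one. Dusp1 held a CRE, the element bound by CREB family factors, at position -143, and 1.79% of all windows hold one. The EGR site was found in Dusp2 (overlapping a GC box) and Dusp22, and in 2.91% of all windows. Dusp14 had 1 match, a GC box, while Dusp10 had 4 CCAAT boxes and 3 GC boxes; the CCAAT box is in 37.4% of all windows. AP-1, ETS and TATA letters were in none of the 9 windows, and in 5.2%, 8.86% and 13.6% of all windows. A CCAAT box was found in 4 of the 9 windows, near its share of 37.4% in all windows. These were the windows of the 3 members called lower and of Dusp16, called higher. A link between this motif and direction was not tested. These matches describe letters in a window and name no bound factor.

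Of the nuclear inducible phosphatases, Dusp2, Dusp5 and Dusp4 were the most abundant members, while Dusp1 lay lower. Dusp2 (ENSMUSG00000027368.6, chromosome 2, 127336159 to 127338376, plus strand, GRCm38), whose product PAC1 is a nuclear ERK and p38 phosphatase of activated lymphocytes, had 313, 327 and 347 CPM in Satb1 cKO and 337, 275 and 301 CPM in control. The groups overlapped, the highest control library lying above 2 of the Satb1 cKO libraries. On the log2 scale the difference was 0.11 (95% interval -0.04 to 0.26, adjusted p = 0.21). Without control replicate 1, its highest control library, Dusp2 was called higher (0.18, adjusted p = 0.0105).

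Dusp5 (ENSMUSG00000034765.6, chromosome 19, 53529109 to 53542431, plus strand) encodes a nuclear phosphatase specific for ERK. It had 302, 334 and 347 CPM in Satb1 cKO and 308, 247 and 275 CPM in control. Control replicate 1 again lay above the lowest Satb1 cKO library, so the groups overlapped although the gene was called higher (log2 fold change 0.24, SE 0.074, adjusted p = 0.0207). The call was lost without Satb1 cKO replicate 2 (adjusted p = 0.0625) or 3 (0.0906), and without control replicate 2 (0.0923) or 3 (0.0696).

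Dusp4 (ENSMUSG00000031530.6, chromosome 8, 34807297 to 34819894, plus strand) encodes MKP2, a nuclear phosphatase of ERK, JNK and p38. Its levels were 92.0, 89.4 and 114 CPM in Satb1 cKO, against 82.4, 54.6 and 50.4 CPM in control. All Satb1 cKO libraries lay above all control libraries, with control replicate 1 close to the lowest of them. The rise was 1.56-fold (log2 fold change 0.65, SE 0.155, adjusted p = 0.00596), and it held when each library was left out in turn.

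Dusp1 (ENSMUSG00000024190.7, chromosome 17, 26505590 to 26562128, minus strand), encoding the nuclear phosphatase MKP1 that acts mainly on p38 and JNK, had 23.0, 28.7 and 24.6 CPM in Satb1 cKO and 32.2, 24.5 and 23.3 CPM in control. The groups overlapped and the gene did not pass (log2 fold change -0.08, 95% interval -0.35 to 0.19, adjusted p = 0.641). Without control replicate 1 the sign turned (0.080, adjusted p = 0.55). The annotated body of Dusp1 overlaps that of Ergic1 on the opposite strand (26561489 to 26562128), and reads there cannot be assigned with certainty.

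**Figure D2:**
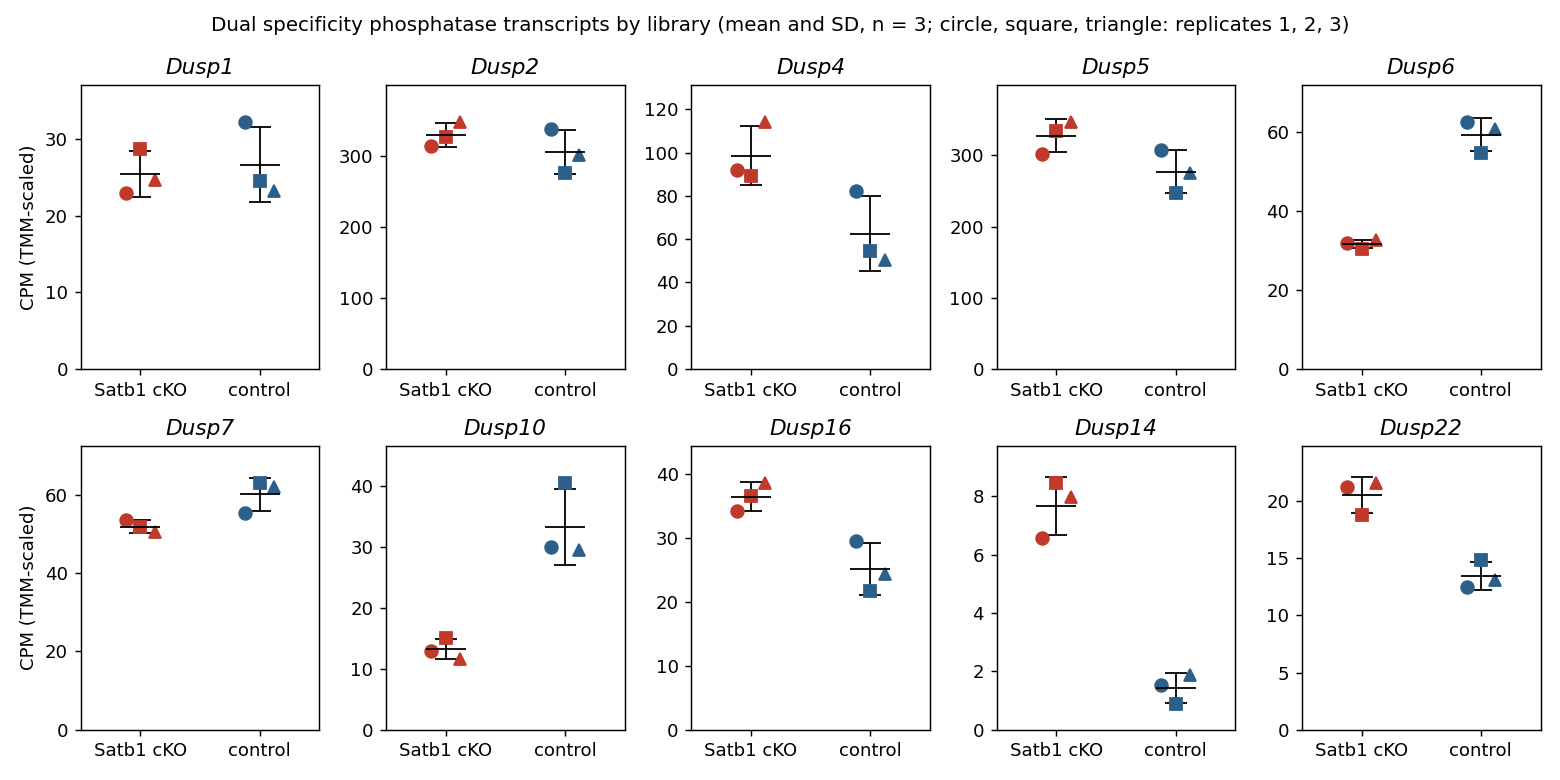
TMM-scaled CPM (y axis, from 0) of the 10 phosphatase genes in Satb1 cKO and control libraries (x axis); points are libraries, with the mean and SD of 3. The groups do not overlap for Dusp4, Dusp6, Dusp7, Dusp10, Dusp14, Dusp16 and Dusp22, and control replicate 1 is the highest control library for Dusp1, Dusp2, Dusp4, Dusp5, Dusp6 and Dusp16.

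The cytoplasmic ERK phosphatases were both lower in Satb1 cKO. Dusp6 (ENSMUSG00000019960.8, chromosome 10, 99263231 to 99267489, plus strand) encodes MKP3, which holds ERK in the cytoplasm and dephosphorylates it there. It had 32.0, 30.5 and 32.6 CPM in Satb1 cKO libraries and 62.6, 54.7 and 60.8 CPM in control libraries. The groups were far apart relative to their spread, and Dusp6 fell to 53.4% of its control mean (log2 fold change -0.91, SE 0.064, adjusted p = 1.08e-06). It had the smallest p of the 10 members and stood at place 223 of all 13364 genes ordered by p.

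Dusp7 (ENSMUSG00000053716.9, chromosome 9, 106368632 to 106375724, plus strand), a close relative with the same substrate, had 53.5, 51.8 and 50.3 CPM in Satb1 cKO and 55.2, 63.0 and 62.0 CPM in control. The groups did not overlap, but the fall was small, to 86.3% of the control mean (log2 fold change -0.21, SE 0.061, adjusted p = 0.0164). It lost its call without Satb1 cKO replicate 3 (adjusted p = 0.0613) and without control replicate 2 (0.0588) or 3 (0.0625). Per length, Dusp6 stood below Dusp7 in Satb1 cKO and near it in control. RPKM is reads per kilobase of exon, scaled to library size like CPM. The ratio of Dusp6 to Dusp7 in RPKM was 0.655 ± 0.034 in Satb1 cKO and 1.07 ± 0.142 in control (SD, n = 3 each). Dusp6 differed between the groups by more than Dusp7 varied over all libraries, so this ratio had to separate the groups. The two-sided exact permutation p of 0.1, the smallest that 3 against 3 libraries allows, was fixed by this and adds no support.

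Of the JNK and p38 phosphatases, Dusp10 (ENSMUSG00000039384.8, chromosome 1, 184013302 to 184075636, plus strand) encodes MKP5, which limits JNK activity and cytokine production in mouse T cells. It had 13.0, 15.0 and 11.6 CPM in Satb1 cKO and 29.9, 40.5 and 29.4 CPM in control. Every Satb1 cKO library lay well below every control library. On the log2 scale the difference was -1.33 (SE 0.133, adjusted p = 1.65e-05), and over the alternatives it ranged from -1.43 to -1.17. The protein-coding gene 1700056E22Rik overlaps Dusp10 on the opposite strand (184033030 to 184034301), around the RefSeq promoter printed above, and had 8 to 16 reads in each library. The genes whose log2 CPM profile over the 6 libraries lay nearest to that of Dusp10 were Gm8251, Adamtsl4 and Cacnb1. Their root mean square distances were 0.103, 0.108 and 0.125, among 10899 protein-coding genes. Gm8251 had low counts, 12 to 19 reads per Satb1 cKO library and 35 to 43 per control library.

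Dusp16 (ENSMUSG00000030203.17, chromosome 6, 134715468 to 134792625, minus strand) encodes MKP7, a JNK phosphatase that shuttles between nucleus and cytoplasm. Its levels were 34.1, 36.5 and 38.6 CPM in Satb1 cKO and 29.5, 21.6 and 24.3 CPM in control. The groups did not overlap, and Dusp16 rose 1.44-fold (log2 fold change 0.52, SE 0.102, adjusted p = 0.00165). The ratio of Dusp16 to Dusp10 in RPKM was 1.03, 0.946 and 1.29 in Satb1 cKO and 0.385, 0.208 and 0.322 in control. Dusp16 was thus near the level of Dusp10 in Satb1 cKO and well below it in control. Neither gene overlapped between the groups and they moved in opposite directions, so their ratio had to separate the groups. The two-sided exact permutation p of 0.1, the smallest possible, was fixed by this and adds no support.

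The atypical phosphatases both rose. Dusp22 (ENSMUSG00000069255.13, chromosome 13, 30659999 to 30711231, plus strand) encodes JKAP, which in mouse T cells dephosphorylates the receptor-proximal kinase Lck. It had 21.3, 18.8 and 21.6 CPM in Satb1 cKO and 12.5, 14.8 and 13.1 CPM in control. The groups did not overlap (1.53-fold, log2 fold change 0.61, SE 0.097, adjusted p = 0.000416). Irf4, the nearest tested gene on its higher-coordinate side at a distance of 37995 bp, encodes a transcription factor of activated T cells and stood at 2110 ± 70.7 CPM in Satb1 cKO and 2149 ± 69.9 CPM in control (adjusted p = 0.561).

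Dusp14 (ENSMUSG00000018648.15, chromosome 11, 84048041 to 84069261, minus strand) encodes a small phosphatase also called MKP6, which binds the co-stimulatory receptor CD28 and dampens T cell receptor signalling through TAB1. It was the least abundant member in control, with 31, 13 and 29 reads per library, against 125, 148 and 132 reads in Satb1 cKO. In CPM it had 6.57, 8.47 and 7.97 in Satb1 cKO and 1.53, 0.873 and 1.88 in control. The lowest Satb1 cKO library stood more than 3-fold above the highest control library. With log2 fold change 2.41 (95% interval 1.90 to 2.91, SE 0.229, adjusted p = 1.07e-05) it stood at place 244 of 13364 genes by absolute change. Leaving out single libraries gave 2.17 to 2.62.

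Several lists of markers of other cells were higher in Satb1 cKO, as Dusp14 was. In Satb1 cKO replicates 1, 2 and 3, the myeloid marker sum was 128, 74.8 and 180 CPM and the red cell marker sum was 310, 1862 and 1609 CPM. Dusp14 was highest in replicate 2, which had the lowest myeloid sum, and lowest in replicate 1, which had the lowest red cell sum. Of the 11 myeloid markers tested, 10 were called higher. The 6 dendritic cell markers summed to 16.1 to 16.8 CPM in Satb1 cKO and 3.84 to 4.70 CPM in control. Most of that sum was Zbtb46, at 13.8 ± 0.863 CPM in Satb1 cKO and 2.69 ± 0.152 CPM in control, while Flt3, the other one tested, did not pass (adjusted p = 0.993). The 5 platelet markers summed to 5.72 to 10.1 CPM in Satb1 cKO and 2.56 to 4.16 CPM in control; both that were tested were called higher, and Gp1bb was at 0 reads in every library. The part of these cells in the Dusp14 level was not tested. The protein-coding genes with profiles nearest to that of Dusp14 over the 6 libraries were Srxn1, Cebpa and Cd83, at root mean square distances of 0.191, 0.202 and 0.209 (log2). Srxn1 encodes sulfiredoxin, Cebpa a transcription factor of myeloid cells, and Cd83 a surface protein of activated lymphocytes and dendritic cells. The Cebpa profile rests on low counts, with 8, 4 and 7 reads in control.

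Within 500 kb of Dusp14, 10 other genes were tested, and 5 of them were called higher (all genes: 21.6%). The called genes lay at the edges of the window. On the lower-coordinate side these were the chemokine genes Ccl9, Ccl6, Ccl3 and Ccl4, with log2 fold changes of 2.01, 1.41, 3.11 and 2.17. On the other side, Aatf, a transcription cofactor gene at 353594 bp, rose by 0.32 (adjusted p = 0.00134). The 5 genes nearer to Dusp14 did not pass. Synrg, 3463 bp away, stood at 74.4 ± 0.872 CPM in Satb1 cKO and 81.0 ± 6.67 CPM in control (95% interval of the log2 fold change included 0, adjusted p = 0.124). Tada2a, 9659 bp away on the other side, stood at 23.9 ± 1.55 CPM in Satb1 cKO and 23.5 ± 1.82 CPM in control (adjusted p = 0.874). Ddx52, Acaca and Heatr6 had log2 fold changes of 0.00, 0.03 and 0.09. The rises of Dusp14 and of the chemokine genes were thus separated by 3 tested genes, Heatr6, Ddx52 and Synrg, that did not pass the test. In Satb1 cKO replicates 1, 2 and 3 the myeloid marker sum was 128, 74.8 and 180 CPM. The chemokine genes were all lowest in replicate 2, and only Ccl9 was highest in replicate 3. The part of myeloid cells in their rises was not tested.

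**Figure D3:**
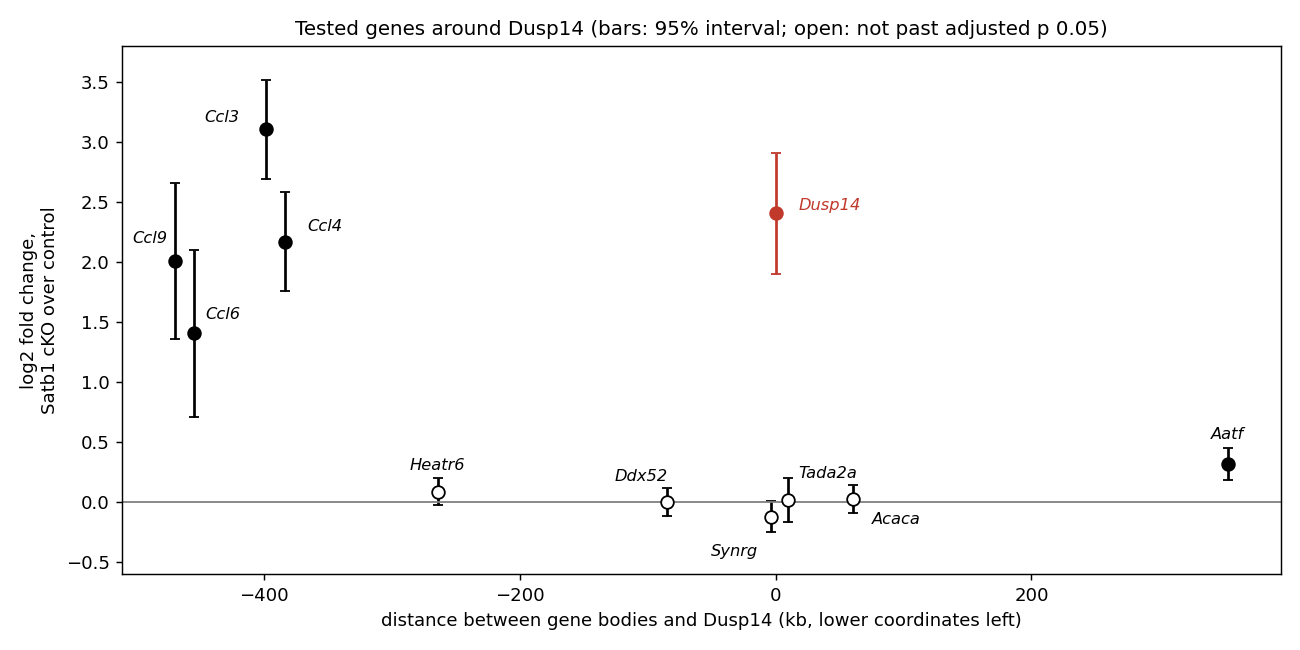
Log2 fold change in Satb1 cKO over control (y axis, bars 95% intervals) of tested genes against the distance of their bodies from Dusp14 in kb (x axis); open points did not pass an adjusted p of 0.05. Dusp14 at 2.41 stands among 5 neighbours between -0.12 and 0.09, with the 4 chemokine genes near the left edge.

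Around the 10 members together, the 2 nearest tested protein-coding genes on each side made 40 neighbours. Genes overlapping a member, such as Ergic1 at Dusp1, were left out. Of the 40 neighbours, 7 were called higher, 8 lower and 25 not (all genes: 21.6% higher and 20.7% lower). Their log2 fold changes had a median of -0.03. The 4 nearest to Dusp14 belong to the 25. Saraf at Dusp4 (0.29) and Smndc1 at Dusp5 (0.18) were called higher, as their members were. Called neighbours that went against their member were Smc3 at Dusp5 (-0.33), Tmtc3 at Dusp6 (0.68) and Acy1 at Dusp7 (0.22). So did Exoc2 (-0.43) and Mboat1 (-0.34) at Dusp22. Dusp16, which rose, lies among neighbours that fell, Gpr19 (-0.76), Crebl2 (-0.25) and Mansc1 (-0.81), while its closest neighbour Borcs5 stood at 0.03 (adjusted p = 0.86). Dusp10, which fell, has Taf1a (0.44) and Rab3gap2 (0.15) as called higher neighbours and Mia3 (-0.12) as a called lower one, at distances of 603104 bp (Taf1a) and more.

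Levels between genes were compared per kilobase of exon. Dusp2 and Dusp5 led in both groups, with 164 ± 8.58 and 133 ± 9.27 RPKM in Satb1 cKO and 152 ± 15.5 and 112 ± 12.3 RPKM in control (SD, n = 3 each), and no library of Dusp5 reached the lowest of Dusp2 within a group. Together with Dusp4, next in both groups, they made up most of the summed RPKM of the 10 members. Dusp2 alone made up 42.9 ± 0.312% of that sum in Satb1 cKO and 43.5 ± 0.607% in control, and Dusp5 34.6 ± 0.751% in Satb1 cKO and 32.0 ± 0.709% in control. In Satb1 cKO, Dusp4 was followed by Dusp7, Dusp6, Dusp1, Dusp16, Dusp10, Dusp22 and Dusp14, and the libraries of neighbours in this order overlapped only among the last 4. Those 4 genes lay between 3.94 RPKM (Dusp14) and 4.67 RPKM (Dusp16). In control, Dusp4 was followed by Dusp6, Dusp7, Dusp10, Dusp1, Dusp16, Dusp22 and Dusp14. Libraries of Dusp4 and Dusp6, of Dusp6 and Dusp7, of Dusp10 and Dusp1 and of Dusp16 and Dusp22 overlapped there. Of these pairs, only Dusp10 and Dusp1 kept their order within every control library. Differences between neighbours were not tested. Dusp10 was at place 8 in Satb1 cKO, against place 6 in control, and Dusp14 was last in both groups, at 3.94 ± 0.507 RPKM in Satb1 cKO and 0.733 ± 0.263 RPKM in control.

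**Figure D4:**
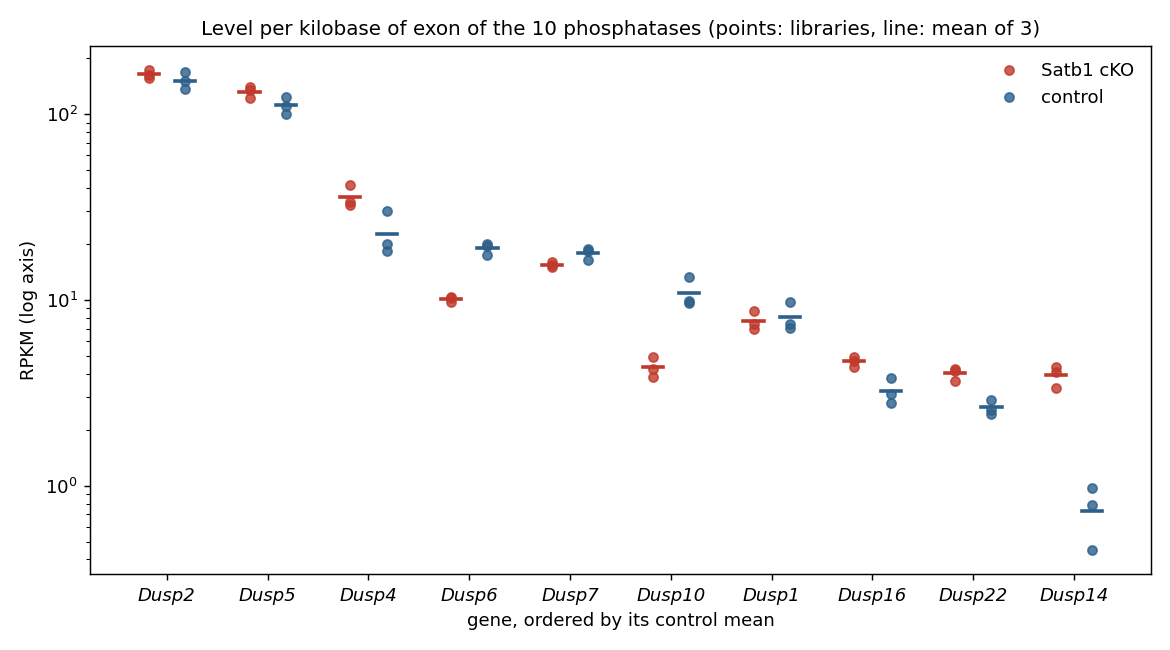
RPKM (log y axis) of the 10 phosphatase genes (x axis, ordered by control mean) in Satb1 cKO and control; points are libraries and lines the means of 3. Dusp2 and Dusp5 lie above 100 RPKM in Satb1 cKO, and the lower-ranked genes Dusp16, Dusp10, Dusp22 and Dusp14 lie close together there but are spread out in control.

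Summed over the 10 members, the libraries held 361, 382 and 405 RPKM in Satb1 cKO and 386, 321 and 341 RPKM in control, and the groups overlapped. The nuclear inducible genes made up most of this sum, with 340 ± 21.8 RPKM in Satb1 cKO and 295 ± 34.5 RPKM in control, again with overlap. The other 3 functional groups did not overlap between genotypes, against 53.4% of all genes tested singly. For the cytoplasmic and atypical groups this follows from their members, which separated in a shared direction. Cytoplasmic ERK phosphatases summed to 25.6 ± 0.509 RPKM in Satb1 cKO and 36.9 ± 0.887 RPKM in control. The JNK and p38 phosphatases summed to 9.02 ± 0.533 RPKM in Satb1 cKO and 14.2 ± 1.71 RPKM in control, and the atypical ones to 7.96 ± 0.397 RPKM in Satb1 cKO and 3.37 ± 0.154 RPKM in control. The fall in the JNK and p38 sum was that of Dusp10, as Dusp16 was called higher. These sums restate the values of the members and are given as a description, with no test.

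Other dual specificity phosphatases were mostly low. Of 18 further genes of the family, 8 had enough reads to be tested, and Dusp21, Dusp27 and Dupd1 had 0 reads in every library. Of the 8 tested, 2 were called higher (25%) and 1 lower (12.5%), against 21.6% and 20.7% of all genes. Dusp8, encoding a phosphatase of JNK and p38, was called higher, at 1.25 ± 0.276 CPM in Satb1 cKO and 0.345 ± 0.104 CPM in control (log2 fold change 1.86, SE 0.374, adjusted p = 0.00203), from 20 to 26 reads per Satb1 cKO library and 5 to 7 per control library. Ptpmt1, encoding a mitochondrial lipid phosphatase, was also higher (0.62, SE 0.090). Dusp11, encoding an RNA phosphatase, was the most abundant of them and was called lower by a small amount, at 218 ± 4.77 CPM in Satb1 cKO and 241 ± 7.59 CPM in control. Dusp12, Dusp19, Dusp23, Dusp28 and Styx did not pass. Among other enzymes that dephosphorylate MAP kinases, 4 of 7 tested were called higher (all genes: 21.6%) and the other 3 did not pass. Ptpn5, a tyrosine phosphatase that binds ERK and p38, had 5.09, 7.55 and 7.42 CPM in Satb1 cKO and 0.640, 0.604 and 0.713 CPM in control (log2 fold change 3.34, SE 0.247, adjusted p = 1.6e-06). Ptpn7, the related phosphatase of blood cells, rose by 0.19, and the PP2A catalytic subunit genes Ppp2ca and Ppp2cb by 0.29 and 0.26 (log2).

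Genes of the kinases on which these phosphatases act were called in both directions. Of 8 MAP kinase genes tested, 1 was called higher (12.5%) and 2 lower (25%), against 21.6% and 20.7% of all genes. Mapk7, encoding ERK5, was called higher (log2 fold change 0.47, SE 0.080). The p38 genes Mapk11 and Mapk14 were called lower (-0.95, SE 0.083, and -0.36, SE 0.044). Of 21 MAP2K and MAP3K genes and TAB adaptors, 3 were called higher and 5 lower (all genes: 21.6% and 20.7%). Map2k3, encoding a kinase of p38, rose by 0.87 (SE 0.060), Tab2 by 0.48 and Map2k2 by 0.23, while Map3k3 fell by 0.33, all on the log2 scale. The genes called lower were Map3k1, Map3k2, Map3k3, Map3k4 and Tab1. Tab1, whose product is a substrate of DUSP14 and which was picked out after its values were seen, stood at 23.3 ± 1.45 CPM in Satb1 cKO and 27.0 ± 0.472 CPM in control (log2 fold change -0.21, adjusted p = 0.0332).

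Of 15 tested genes of Ras activation, 4 were called higher (26.7%) and 5 lower (33.3%), against 21.6% and 20.7% of all genes. Among those called higher, Hras and Nras, which encode Ras proteins, rose by 0.37 and 0.49 on the log2 scale, and the adaptor gene Grb2 by 0.13. Rasgrp1, encoding the exchange factor that loads Ras below the T cell receptor, stood at 155, 173 and 146 CPM in Satb1 cKO and 290, 350 and 314 CPM in control (log2 fold change -1.01, SE 0.074, adjusted p = 1.52e-06). Its relative Rasgrp2 fell by 0.82, the scaffold gene Ksr1 by 0.31, and the GTPase-activating protein genes Rasa3 and Rasal3 by 0.40 and 0.28. Of the 6 tested Sprouty and Spred genes, whose products brake the Ras pathway, 1 was called higher and 1 lower (16.7% each). Spry2 was called higher at low counts, with 51, 40 and 52 reads in Satb1 cKO and 15, 9 and 8 reads in control. Spred2 was called lower (log2 fold change -0.70, SE 0.077), and Spry1, the most abundant, stood at 138 ± 8.01 CPM in Satb1 cKO and 129 ± 30.3 CPM in control (adjusted p = 0.586).

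Of 18 genes known to be induced by ERK or other MAP kinases, 11 were called higher and 3 lower (all genes: 21.6% and 20.7%). Their median was 0.54 on the log2 scale, against 0.00 for all genes. Jun, an AP-1 subunit gene, had 94.0, 101 and 98.5 CPM in Satb1 cKO and 26.9, 36.0 and 34.7 CPM in control (log2 fold change 1.60, SE 0.089, adjusted p = 1.88e-07). Fosl2 rose by 1.38, the zinc finger factor gene Egr2 by 0.92 and Junb by 0.60 on the log2 scale. The 3 that fell were Egr3 (-0.77), Fos (-0.47) and the ETS factor gene Etv4 (-1.70); they are named for being so few. Etv4 had 18, 19 and 11 reads in Satb1 cKO and 67, 37 and 47 reads in control. Its relative Etv5 stood at 5.06 ± 0.653 CPM in Satb1 cKO and 4.73 ± 0.699 CPM in control (adjusted p = 0.721). In the same libraries the median of the tested myeloid markers was 2.64 (log2), and its part in these rises was not tested. The lists of pathway genes were drawn up with earlier results on these libraries known, so their directions are not independent evidence.

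**Figure D5:**
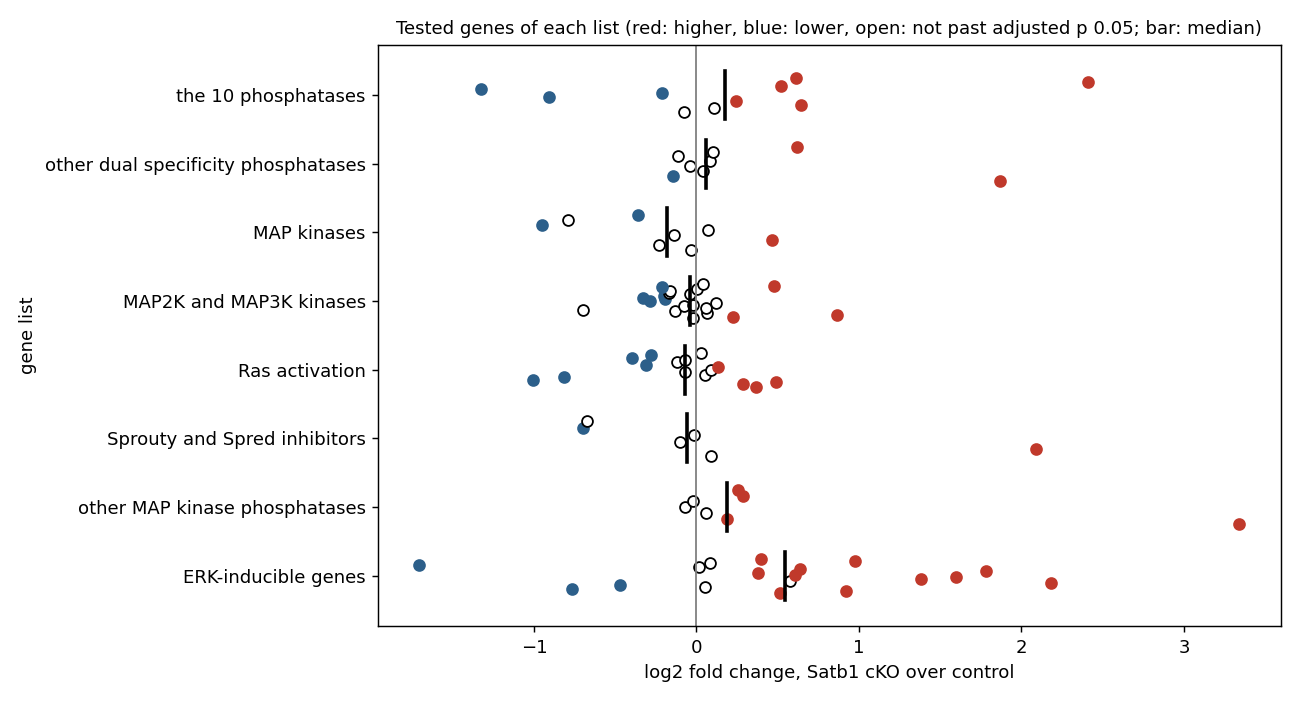
Log2 fold change in Satb1 cKO over control (x axis) of each tested gene in the phosphatase, MAP kinase and target lists (y axis), coloured by call, with the list median as a bar. Called genes lie on both sides of 0 in every list except the other MAP kinase phosphatases, and the ERK-inducible genes have the highest median, 0.54.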

How the data were processed

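Raw counts, whole numbers of reads per gene, were deposited by the authors as 1 table per library (3 Satb1 cKO, 3 control); groups and replicate numbers came from the titles. Per the submitters' processing notes, reads were handled with STAR 2.7.3a and HTSeq 0.12.4 on mm10; the sources used here give neither annotation release nor strand setting, and reads where genes overlap on opposite strands are uncertain. Symbols, positions and exon lengths came from GENCODE M21 (GRCm38), matched for 55141 of 55401 genes; 5 summary lines were left out. Reads on no feature were 7.32% to 9.50% of each table, ambiguous reads 5.40% to 5.57% and reads with several alignments 2.92% to 3.16%.

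Counts were tested with edgeR 4.0.16 in R 4.3.3: filterByExpr (13364 genes kept), TMM scaling, quasi-likelihood test with group as the only term, Benjamini-Hochberg adjustment over all genes tested, and calls at an adjusted p under 0.05. CPM and RPKM use TMM-scaled library sizes and union exon length. Standard errors and 95% intervals derive from the coefficient and its F statistic. Profile likeness used log2 CPM with a prior count of 2. No 2 libraries were identical, and counts of replicate pairs differed by more than sampling noise (chi-square per degree of freedom 2.16 to 7.58). Alternatives were other scaling, DESeq2 1.42.0, no filter, genes left out, a replicate block and each library left out.

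The members and gene lists were chosen with earlier results of these data known. Named genes are the members, called genes of the family, up to 4 called genes of smallest p per list, near neighbours and the 3 genes most alike in profile; not every one is printed, and any other gene named was chosen after its values were seen.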

Additional observations from a re-analysis of the deposited data

How the results depend on the processing

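Dusp4, Dusp6, Dusp10, Dusp14, Dusp16 and Dusp22 kept their direction and call in all 12 alternatives, and with no library left out all 10 members kept theirs. Members called numbered 5 higher and 3 lower with DESeq2 size factors, library totals, DESeq2, no filter, or without immunoglobulin, T cell receptor, mitochondrial and globin genes. With the replicate block, 5563 of all genes were called (5651 without it), and 5 members were higher and 3 lower. Deviations of same-numbered libraries from their group means had correlations of -0.0125 to 0.0279. With 3 libraries per group these values cannot show whether the numbers pair the libraries, and the labels do not say. Leaving out each library gave 4 to 6 members higher and 2 to 3 lower. Single-library removals gave log2 fold changes of 0.16 to 0.32 for Dusp5, which lost its call in 4 of them, and -0.28 to -0.18 for Dusp7, which lost it in 3. They gave 0.034 to 0.18 for Dusp2, called higher without control replicate 1 (0.18), and -0.18 to 0.080 for Dusp1, whose sign turned without that library (0.080). Control replicate 1 also stood apart over all genes. Its chi-square per degree of freedom was 7.58 and 6.7 against control replicates 2 and 3, which gave 2.16 between them. All genes called numbered 5835 without it, and 4847 and 4671 without control replicates 2 and 3. The cause was not tested. Low counts limit Dusp14 in control (13 to 31 reads per library).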
